A study of Mus musculus with 20 samples.

Results

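Ctsd and 9 of its neighbors on mouse chromosome 7 were followed through a series on mammary tumors that lack cathepsin D (CTSD) in the epithelium. The 10 genes, Dusp8, Ifitm10, Ctsd, Syt8, Tnni2, Lsp1, Tnnt3, Mrpl23, H19 and Igf2, were chosen by name for their position within 1 Mb of Ctsd, and all 10 were found among the 45706 genes of the count files. RNA was sequenced from tumors of 4 control and 4 MMTV-cre;Ctsd-/- mice, 18 weeks old, and from cultured tumor cells in 4 groups of 3 samples. All mice carried the PyMT oncogene, and both PyMT and cre were driven by the MMTV promoter, which is active in mammary epithelium. The study names stromal cells as the probable source of the CTSD protein left in Ctsd-/- tumors, which was not tested here. The control tumors are labelled WT and came, per the study's methods, from CTSD-competent mice with untargeted or floxed Ctsd alleles. The cells were immortalized PyMT tumor cells, a line from 1 Ctsd+/+ mouse and a line from 1 MMTV-cre;Ctsd-/- mouse, starved in 1% FCS (fetal calf serum) for 10 days, called 1% FCS, or for 12 weeks, called 1% FCS LT. Genotype and line therefore cannot be told apart in cells, and p-values measure only the spread between cultures.

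CTSD is an aspartic protease of the lysosome that is sorted there largely by mannose 6-phosphate receptors and is abundant in macrophages and in many carcinomas. Downstream of Ctsd lies Ifitm10, a member of a family of interferon-induced transmembrane proteins. On the other side lie Syt8, a synaptotagmin, then the fast skeletal muscle troponins Tnni2 and Tnnt3 with Lsp1, a leukocyte actin-binding protein, between them, and Mrpl23, a subunit of the mitochondrial ribosome. H19, a non-coding RNA, and Igf2, a fetal growth factor, form an imprinted pair. H19 is transcribed from the maternal and Igf2 from the paternal chromosome. They share enhancers and a control region that CTCF binds where it is not methylated. Dusp8, a phosphatase of stress-activated kinases, lies on the far side of Ifitm10.

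In the mouse genome GRCm38, Ctsd occupies chromosome 7, positions 142375911 to 142388038, on the minus strand. Ifitm10 (142325837 to 142373753) follows it in the same direction, with 2.16 kb between the end of Ctsd and the start of Ifitm10. Syt8 (142434850 to 142440396) and Tnni2 (142441808 to 142444410) form a second tandem pair on the plus strand, 1.41 kb apart. Lsp1 (142460809 to 142494867), Tnnt3 (142498836 to 142516009) and Mrpl23 (142532686 to 142540747) are also on the plus strand. H19 (142575529 to 142578143) and Igf2 (142650766 to 142666816) are on the minus strand with 72.6 kb between them, and Dusp8 (142079490 to 142095843) starts 292 kb from the Ctsd start. Values below are gene counts per 1000000 counts of the scaled library (CPM), and CPM per kb of exon where genes are compared with each other.

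RefSeq promoters (GRCm38.p6) were found for 6 of the 10 genes. The 250 bases before the start are shown for Ctsd, for its tandem neighbor Ifitm10, which was low together with it in the cells, and for Syt8, which moved with time in culture. Capitals mark matches, on either strand, to the E-box CACGTG, the GC box GGGCGG and the TATA box TATAAA.
Ctsd, chr7:142387828-142388077, minus strand: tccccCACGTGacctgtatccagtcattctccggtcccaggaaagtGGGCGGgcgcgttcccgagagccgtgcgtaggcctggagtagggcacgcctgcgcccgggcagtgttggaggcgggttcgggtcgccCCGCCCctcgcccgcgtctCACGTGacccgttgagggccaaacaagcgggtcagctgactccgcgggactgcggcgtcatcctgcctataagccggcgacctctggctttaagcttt
Ifitm10, chr7:142373747-142373996, minus strand: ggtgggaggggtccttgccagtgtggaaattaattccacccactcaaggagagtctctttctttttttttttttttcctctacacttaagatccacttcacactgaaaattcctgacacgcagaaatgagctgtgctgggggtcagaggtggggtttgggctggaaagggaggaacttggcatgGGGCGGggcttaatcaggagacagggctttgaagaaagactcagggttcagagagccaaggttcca
Syt8, chr7:142434600-142434849, plus strand: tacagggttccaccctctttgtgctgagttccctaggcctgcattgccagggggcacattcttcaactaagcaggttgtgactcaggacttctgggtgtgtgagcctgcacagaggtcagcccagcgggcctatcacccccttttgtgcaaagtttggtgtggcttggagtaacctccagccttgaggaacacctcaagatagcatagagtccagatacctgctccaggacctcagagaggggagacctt

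The Ctsd window holds 2 E-boxes and 2 GC boxes, the Ifitm10 window 1 GC box and no E-box, and the Syt8 window none of the 3 motifs. Of the 32851 RefSeq promoters of the same length, 6.02% hold the E-box, 32.7% the GC box and 12.4% the TATA box, on either strand. The 3 windows also differ in base composition, with 67.2% G and C for Ctsd, 49.6% for Ifitm10 and 54.8% for Syt8, against a median of 52.4%. The RefSeq start of Ctsd lies 211 bases inside the gene as GENCODE M21 annotates it. These matches describe the letters of the windows and are not evidence of binding.

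The depth was 49725437 to 64291587 gene counts in each tumor and 33622831 to 40239762 in each cell sample. Control and Ctsd-/- tumors carry different LR numbers in their labels, so that LR number and genotype cannot be told apart there. Of the cells, replicate 1 of both 1% FCS groups and replicate 3 of both 1% FCS LT groups carry other LR numbers than the remaining 8 samples. Control tumor 4 and Ctsd-/- tumor 1 stood apart by skeletal muscle transcripts, with 1198 and 297.5 CPM summed over 16 markers against 9.11 to 86.2 CPM in the other 6 tumors. Of these markers Tnnc2, a troponin, was at 3 counts or fewer in every control tumor and at 0 in every Ctsd-/- tumor. Adipocyte markers, 9 genes such as Adipoq and Plin1, were all higher in Ctsd-/- tumors past the study's tumor threshold, against 8.44% of all genes. Their sums were 3519 to 24590 CPM against 556.5 to 5732 CPM in controls. The 3 1% FCS Ctsd+/+ cell samples also stood apart from the other 9. Their 9 fibroblast markers summed to 1178 to 3310 CPM, against 3.05 to 99.8 CPM in the other cell groups, and their 12 mammary epithelial markers to 1139 to 2576 CPM, against 7903 to 16710 CPM. Lum and Thy1, which mark fibroblasts, were at 0 in these 3 samples, and 9 of 11 leukocyte markers were at 3 counts or fewer.

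Ctsd was checked first, since it is the deleted gene. In control tumors it reached 1860.2, 2617, 1781 and 2532.5 CPM, and in Ctsd-/- tumors 797, 360.2, 1295 and 1233 CPM. Every Ctsd-/- tumor lay below every control tumor. Ctsd was the only one of the 10 genes whose 2 tumor groups did not overlap, while 4.15% of all genes tested in tumors did not overlap. The mean level in Ctsd-/- tumors was 41.9% ± 19.8 (SD, n = 4) of the control mean, with single tumors at 36.3%, 16.4%, 58.9% and 56.1%. The log2 fold change was -1.25 ± 0.38 (SE; edgeR's quasi-likelihood test with Benjamini-Hochberg adjustment, adjusted p = 0.463). It passed the study's tumor threshold, an unadjusted p under 0.1, also in every fit that left out 1 tumor, and did not pass after adjustment.

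Macrophage markers, 10 genes including Lyz2 and Cd14, summed to 1271 to 2494 CPM in Ctsd-/- tumors and to 1294 to 2857 CPM in controls. Of the 10, 0 passed the threshold in either direction, against 8.44% of all genes higher and 8.27% lower. In Ctsd-/- tumors 1 to 4 they summed to 2494, 1402, 1834 and 1271 CPM. In the same order, adipocyte markers summed to 8330, 3519, 11500 and 24590 CPM and endothelial markers to 67.7, 110, 269.1 and 256.8 CPM. Fibroblast markers summed to 1705, 2410, 2916 and 2123 CPM and leukocyte markers to 362.9, 267.2, 269.8 and 220.6 CPM. The part of macrophages or of these other cell types in the remaining Ctsd was not tested. In tumor RNA, fewer cells of a type and less RNA per cell cannot be told apart.

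In cells the reads left were fewer. In 1% FCS, Ctsd reached 4199, 2858 and 1266.5 CPM in Ctsd+/+ and 192.4, 140.8 and 131.1 CPM in Ctsd-/- cells. In 1% FCS LT the values were 1627, 1667 and 1895 CPM in Ctsd+/+ and 122.8, 114 and 151.1 CPM in Ctsd-/- cells. The genotypes did not overlap at either time. The Ctsd-/- cells held 5.58% ± 1.19 (SD, n = 3) of the Ctsd+/+ mean in 1% FCS and 7.48% ± 1.12 (SD, n = 3) in 1% FCS LT. The log2 fold changes were -4.16 ± 0.37 (SE; adjusted p = 4.34e-06) and -3.74 ± 0.36 (SE; adjusted p = 1.24e-05). The 10 macrophage markers summed to 19 to 27.9 CPM in 1% FCS Ctsd+/+, 33.4 to 49.1 CPM in 1% FCS Ctsd-/-, 75.7 to 94.7 CPM in 1% FCS LT Ctsd+/+ and 32.1 to 50.9 CPM in 1% FCS LT Ctsd-/- cells. Of the 10, 4 to 6 per group were at 3 counts or fewer in every sample. Among them were Fcgr1, C1qa, C1qb and C1qc in all 4 groups. Of the 3 that could be tested, 2 were higher in 1% FCS Ctsd-/- cells, against 23.5% of all genes. In 1% FCS LT 1 was higher and 1 lower, against 20.5% and 19.1%. With time in Ctsd+/+ cells 2 rose, against 23% of all genes. The part of macrophages in the remaining Ctsd was not tested in cells either.

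**Figure D1:**
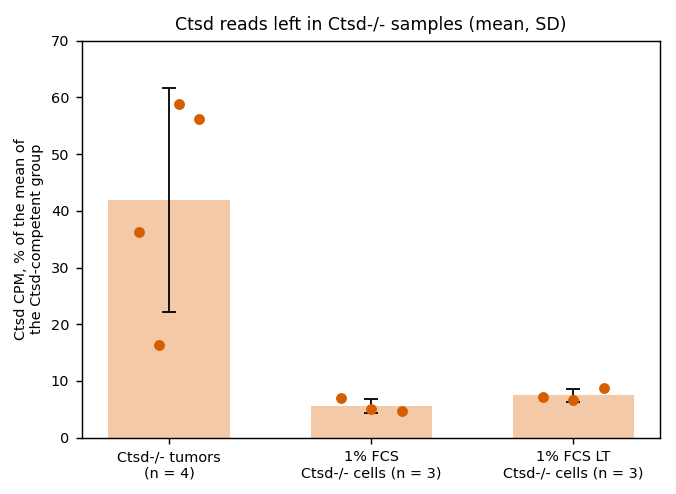
Ctsd level in each Ctsd-/- sample as a percentage of the mean CPM of the CTSD-competent group of the same material and time. Points are samples, bars group means and error bars SD: tumors spread from 16.4% to 58.9%, while both groups of Ctsd-/- cells stayed between 4.72% and 8.74%.

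Counts of Ctsd stayed high among genes after the deletion. The targeted exon is exon 2, so transcripts that lack it are still counted, and a count over the whole gene does not show intact Ctsd RNA. Per kb of exon it reached 935 CPM in control tumors, rank 61 of 18527 genes, and 392 CPM in Ctsd-/- tumors, rank 142. In 1% FCS Ctsd+/+ cells it was at 1180.0 CPM per kb, rank 8 of 15113 genes, and in 1% FCS Ctsd-/- cells still at 65.8 CPM per kb, rank 651. In 1% FCS LT it was at 735.7 CPM per kb in Ctsd+/+ and 55 CPM per kb in Ctsd-/- cells, ranks 26 and 778. The 2 times did not differ past an adjusted p of 0.05 in Ctsd+/+ cells (log2 fold change -0.68 ± 0.33 (SE), adjusted p = 0.109) or in Ctsd-/- cells (-0.26 ± 0.33, adjusted p = 0.731). In Ctsd+/+ cells this rests on 1% FCS replicate 3: without it the log2 fold change was -1.03 (adjusted p = 0.00188). The genotype difference itself did not change with time past the threshold (interaction of genotype and time 0.42 ± 0.46 on the log2 scale (SE), adjusted p = 0.529). Tumors and cells were scaled separately and were not compared.

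**Figure D2:**
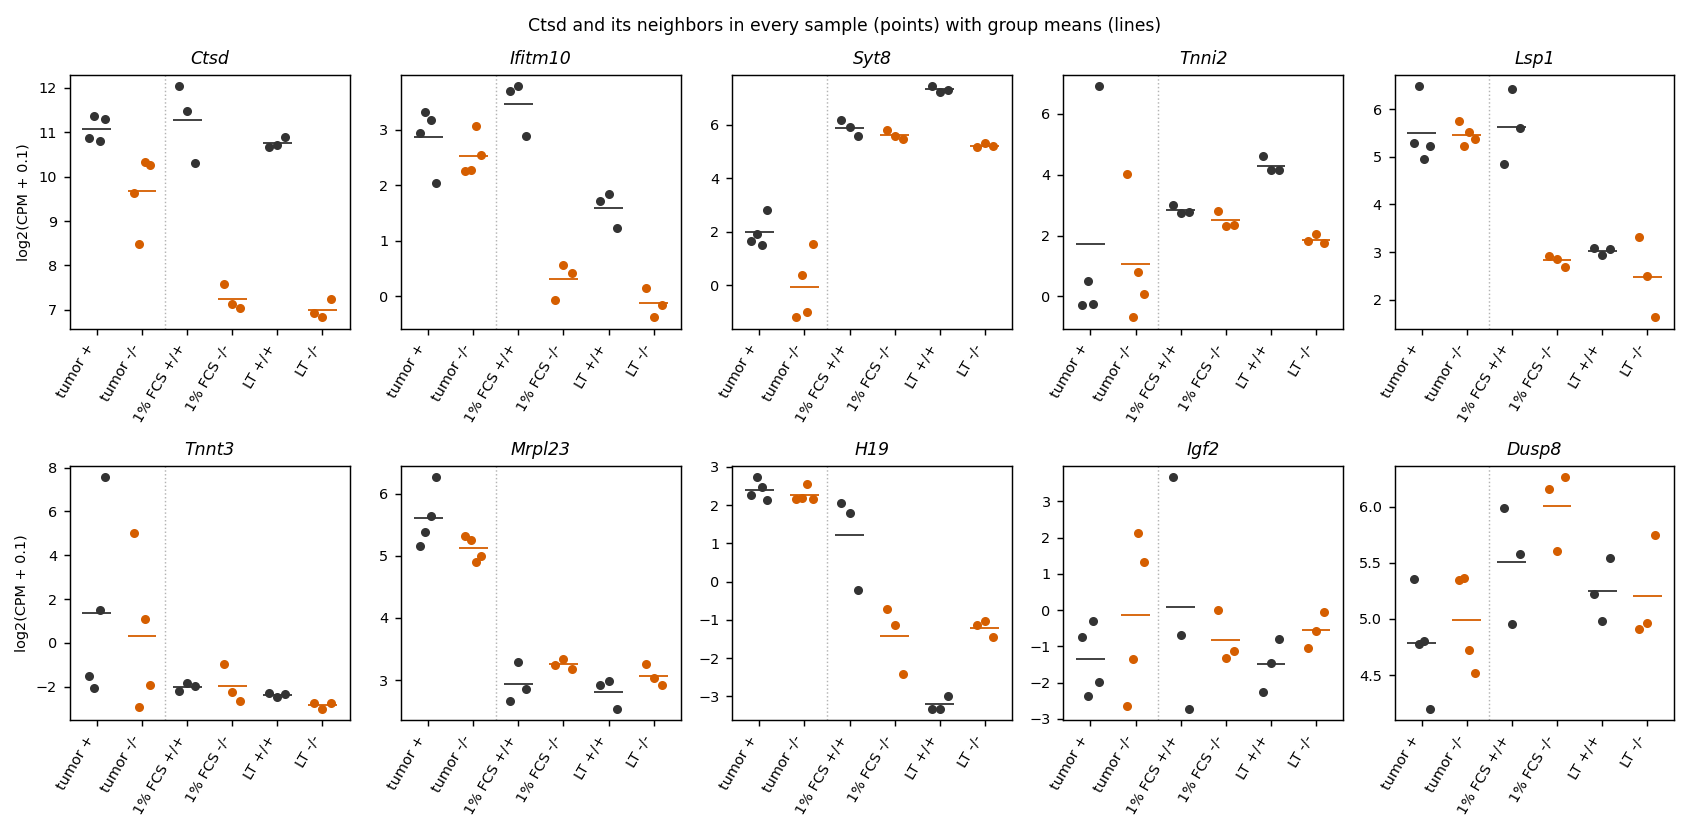
Level of the 10 genes in every sample, as log2(CPM + 0.1), with tumors left and cells right of the dotted line in each panel. Points are samples, short lines are means of the log2 values, black marks CTSD-competent and orange Ctsd-/- samples; in Ctsd all orange points lie below the black points of the same material and time, while in Tnni2 and Tnnt3 a single tumor of each genotype lies far above the rest.

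Beside Ctsd, the neighbors divided differently in each comparison. In tumors 1 of 10 members was higher (Igf2) and 3 were lower (Ctsd, Syt8 and Mrpl23) at p under 0.1, where 8.44% and 8.27% of all genes tested passed in these directions. The count of 4 was 2 without Ctsd-/- tumor 3 or tumor 4, and 2 without both tumors that hold muscle transcripts. None of the 10 reached an adjusted p of 0.05 in edgeR, as 0.00537% of genes did. An unadjusted p under 0.05 was found for 2 of them, a level whose share of all genes is not given here. Between Ctsd-/- and Ctsd+/+ cells, 9 members could be tested, since Tnnt3 failed the filter on low counts. In 1% FCS 0 were higher and 4 lower (Ctsd, Ifitm10, Lsp1, H19) at an adjusted p under 0.05, against 23.5% and 25.1% of all genes. In 1% FCS LT 1 was higher (H19) and 4 were lower (Ctsd, Ifitm10, Syt8, Tnni2), against 20.5% and 19.1%. Without Ctsd, 3 of 8 members were called in 1% FCS and 4 of 8 in 1% FCS LT, near the shares of all genes taken over both directions. Median absolute log2 fold changes of the 8 were larger than those of all genes, at 1.72 against 0.50 in 1% FCS and 1.46 against 0.42 in 1% FCS LT. These medians fall in gaps and lean on Igf2, which was not called. In 1% FCS the median lies between Dusp8 (0.47) and Lsp1 (-2.96), with Igf2 at -3.05, or 0.91 without replicate 1 of Ctsd+/+. In 1% FCS LT it lies between Igf2 (1.07) and Ifitm10 (-1.84).

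Between 1% FCS LT and 1% FCS, 2 members were higher (Syt8, Tnni2) and 4 lower (Ifitm10, Lsp1, H19, Igf2) in Ctsd+/+ cells, where 23% and 23.4% of all genes passed. In Ctsd-/- cells 0 of 9 members passed in edgeR, where 1.57% of genes were higher and 0.81% lower. There 3 members (Syt8, Tnni2, Dusp8) had an unadjusted p under 0.05, a level whose share of all genes is not given here. In that comparison limma-voom called 0 members, and DESeq2 called 1 (Tnni2). The interaction of genotype and time was past the threshold for 3 members with a positive value (H19, Lsp1, Ifitm10) and 2 with a negative one (Tnni2, Syt8), against 16.1% and 14.1% of all genes. The 1% FCS Ctsd+/+ samples enter the genotype comparison in 1% FCS, the time comparison in Ctsd+/+ cells and the interaction, so these results share their samples.

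Ifitm10, which starts just past the Ctsd end, was low in Ctsd-/- cells at both times. In 1% FCS it was at 12.8, 13.6 and 7.30 CPM in Ctsd+/+ and at 0.85, 1.37 and 1.24 CPM in Ctsd-/- cells, 9.76 times lower in the mean. After 12 weeks Ifitm10 was at 3.19, 3.46 and 2.26 CPM in Ctsd+/+ and at 1.01, 0.67 and 0.80 CPM in Ctsd-/- cells, 3.6 times lower. Neither pair of groups overlapped. The log2 fold changes were -3.29 ± 0.31 (SE; adjusted p = 7.02e-06) and -1.84 ± 0.31 (SE; adjusted p = 0.000609). In Ctsd+/+ cells Ifitm10 fell by 1.92 on the log2 scale with time (SE 0.293, adjusted p = 0.000254), and its value in Ctsd-/- cells was -0.48 (adjusted p = 0.464). The interaction of 1.44 ± 0.43 (SE, adjusted p = 0.0236) did not pass in limma-voom (adjusted p = 0.0647) or in the 8 samples of a shared LR number (adjusted p = 0.171). Nor did it pass without replicate 2 of 1% FCS Ctsd+/+, replicate 1 of 1% FCS Ctsd-/-, replicate 3 of 1% FCS LT Ctsd+/+ or replicate 1 of 1% FCS LT Ctsd-/- cells (adjusted p = 0.0511 to 0.0645). In tumors Ifitm10 was at 4.01 to 9.83 CPM in controls and 4.66 to 8.27 CPM in Ctsd-/- tumors, and the groups overlapped (log2 fold change -0.38 ± 0.33 (SE), adjusted p = 0.714). Leaving out control tumor 4 made it -0.59, past the tumor threshold but with an adjusted p of 0.803.

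Syt8 and Tnni2, the second tandem pair, were called together and with the same sign in 3 of the 5 cell tests, and neither passed in the other two. Syt8 rose in Ctsd+/+ cells from 72.9, 60.8 and 47.8 CPM in 1% FCS to 174.9, 150.3 and 158.9 CPM in 1% FCS LT. In Ctsd-/- cells it was at 56.4, 48.0 and 44.7 CPM and then at 35.9, 39.6 and 36.5 CPM. The Ctsd+/+ values at 12 weeks lay above all other cell samples. Tnni2 rose in Ctsd+/+ cells from 8.01, 6.60 and 6.75 CPM to 24.3, 17.7 and 17.6 CPM. In Ctsd-/- cells it was at 6.96, 4.90 and 5.00 CPM and then at 3.40, 4.04 and 3.24 CPM. As for Syt8, the 3 highest samples were the 1% FCS LT Ctsd+/+ cultures.

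The genotype difference of the pair was seen in 1% FCS LT. There Syt8 was 4.33 times lower in Ctsd-/- cells (log2 fold change -2.11 ± 0.15 (SE), adjusted p = 1.48e-06) and Tnni2 5.57 times lower (-2.48 ± 0.20 (SE), adjusted p = 4.08e-06). In 1% FCS the values were -0.28 ± 0.14 (adjusted p = 0.126) and -0.34 ± 0.20 (adjusted p = 0.171), and Syt8 passed without replicate 3 of 1% FCS Ctsd+/+ cells (-0.45, adjusted p = 0.0136). The change of the genotype difference with time was -1.83 ± 0.21 for Syt8 (SE, adjusted p = 6.25e-05) and -2.14 ± 0.28 for Tnni2 (SE, adjusted p = 0.000169), and both were past the threshold in the 8 samples of a shared LR number. Per kb of exon Syt8 was at 85.2 CPM and Tnni2 at 13.3 CPM in 1% FCS LT Ctsd+/+ cells. Markers of skeletal muscle summed to 4.17 to 6.85 CPM in the 12 cell samples, with Myh2 at 3 counts or fewer in each group, while Tnni2 alone was at 17.6 to 24.3 CPM in 1% FCS LT Ctsd+/+ cells.

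In tumors Syt8 was lower in Ctsd-/- mice. It was at 3.05, 3.71, 2.77 and 6.98 CPM in controls and at 0.33, 1.21, 0.40 and 2.77 CPM in Ctsd-/- tumors, where tumor 4 just reached the lowest control. The log2 fold change was -1.80 ± 0.66 (SE, adjusted p = 0.544), past the tumor threshold and past it without any single tumor. Without both tumors that hold muscle transcripts it was -1.13 and did not pass (adjusted p = 0.524).

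The troponins in tumors were highest where muscle transcripts were highest. Tnni2 was at 0.72, 1.31, 0.75 and 120.2 CPM in controls and at 16.1, 0.52, 1.66 and 0.96 CPM in Ctsd-/- tumors. Tnnt3 was at 0.26, 0.14, 2.70 and 187.7 CPM in controls and at 32.7, 0.03, 2.05 and 0.17 CPM in Ctsd-/- tumors. For both genes control tumor 4 was highest and Ctsd-/- tumor 1 second, as it was for the summed muscle markers. Ctsd-/- tumor 4, next by these markers (86.2 CPM), was next for neither troponin. The log2 fold changes, -2.67 ± 1.72 (SE, adjusted p = 0.636) and -2.45 ± 2.15 (SE, adjusted p = 0.714), did not pass the tumor threshold. Without Ctsd-/- tumor 1 they were -4.89 and -5.99 and both passed (adjusted p = 0.358 and 0.366). Without control tumor 4 they were 2.39, which passed (adjusted p = 0.806), and 3.08, which did not. Without both tumors they were 0.18 and -0.47 (adjusted p = 0.925 and 0.93). Without control tumor 1, Tnni2 was at -3.08 and just passed (adjusted p = 0.48), as it did without a filter on low counts (-2.63, adjusted p = 0.621). In cells Tnnt3 had 1 to 17 counts per sample and was not tested.

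**Figure D3:**
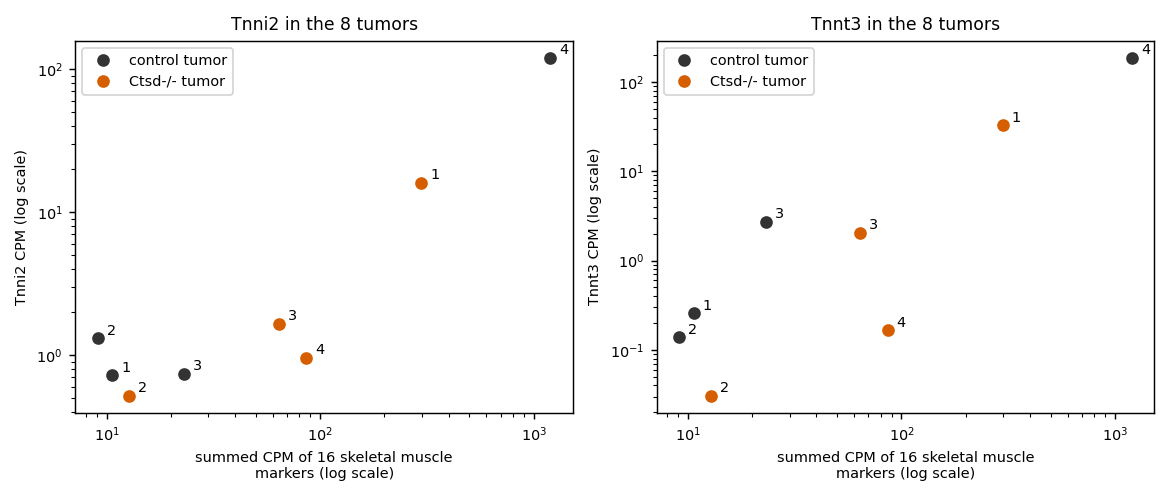
CPM of Tnni2 (left) and Tnnt3 (right) against the summed CPM of 16 skeletal muscle markers in the 8 tumors, both axes on a log scale. Each point is a tumor with its replicate number, black for control and orange for Ctsd-/-; control tumor 4 (1198 CPM of markers) and Ctsd-/- tumor 1 (297.5 CPM) hold the highest levels of both troponins.

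Lsp1 was high in a single cell group. It was at 28.9, 86.1 and 48.8 CPM in 1% FCS Ctsd+/+ cells, at 7.49, 7.17 and 6.39 CPM in 1% FCS Ctsd-/- cells, at 8.38, 7.54 and 8.29 CPM in 1% FCS LT Ctsd+/+ cells and at 9.86, 5.51 and 3.00 CPM in 1% FCS LT Ctsd-/- cells. The 3 samples of the first group lay above the other 9. The genotype difference was -2.96 ± 0.43 in 1% FCS (log2, SE, adjusted p = 0.000156) and -0.40 ± 0.41 in 1% FCS LT (adjusted p = 0.472), and the interaction was 2.56 ± 0.58 (SE, adjusted p = 0.006). With time it fell by 2.76 on the log2 scale in Ctsd+/+ cells (SE 0.423, adjusted p = 0.000267). The high group is the one with 1178 to 3310 CPM of fibroblast markers, and its 11 leukocyte markers summed to 0.18 to 0.31 CPM. The part of the fibroblast transcripts in the Lsp1 difference was not tested. In tumors, where leukocyte markers summed to 213.3 to 400.7 CPM, Lsp1 was at 31.0 to 89.4 CPM in controls and 37.1 to 53.8 CPM in Ctsd-/- tumors (log2 fold change -0.15 ± 0.32 (SE), not past the threshold).

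H19 changed most with time in Ctsd+/+ cells. It had 135, 110 and 29 counts in 1% FCS Ctsd+/+ cells and 0, 0 and 1 count in 1% FCS LT Ctsd+/+ cells. In Ctsd-/- cells it had 21, 13 and 3 counts and then 15, 15 and 11 counts. The order of the genotypes was thus opposite at the 2 times, and the groups overlapped at neither. In CPM, 1% FCS Ctsd+/+ cells had 4.05, 3.36 and 0.76, and 1% FCS Ctsd-/- cells 0.51, 0.36 and 0.09, which is 8.55 times lower in the mean (log2 fold change -3.06 ± 0.66 (SE), adjusted p = 0.00241). In 1% FCS LT the Ctsd-/- cells had 0.36, 0.39 and 0.27 CPM, at least 4.16-fold higher than Ctsd+/+ cells when these are set at 3 counts in the smallest library of their group (adjusted p = 0.00623). Against the same floor H19 was at least 33.6-fold lower in 1% FCS LT than in 1% FCS Ctsd+/+ cells (adjusted p = 8.24e-05). The fitted interaction was 7.87 ± 1.29 on the log2 scale (SE, adjusted p = 0.000873), but its size is not fixed by counts of 0 and 1. It was called in the 8 samples of a shared LR number (adjusted p = 0.011). The part of the fibroblast and epithelial transcripts by which the 1% FCS Ctsd+/+ samples stand apart was not tested for H19, nor for Ctsd, Ifitm10 and Igf2.

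These levels of H19 were low. Per kb of exon its mean was 1.11 CPM in 1% FCS Ctsd+/+ cells, where 73.4% of the genes tested lay above it, and 0.13 CPM and 0.14 CPM in Ctsd-/- cells at the 2 times. In tumors H19 was at 4.29 to 6.51 CPM in controls and 4.34 to 5.81 CPM in Ctsd-/- tumors, and the groups overlapped (log2 fold change -0.15 ± 0.26 (SE), not past the threshold). The exons of H19 overlap the microRNA gene Mir675 on the same strand and 2 predicted genes on the other, and the counting sets such reads aside. Adding the counts of both strands raised H19 by 10.2% to 17.2% in tumors. In cells 0.282% of the H19 counts lay on the other strand.

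**Figure D4:**
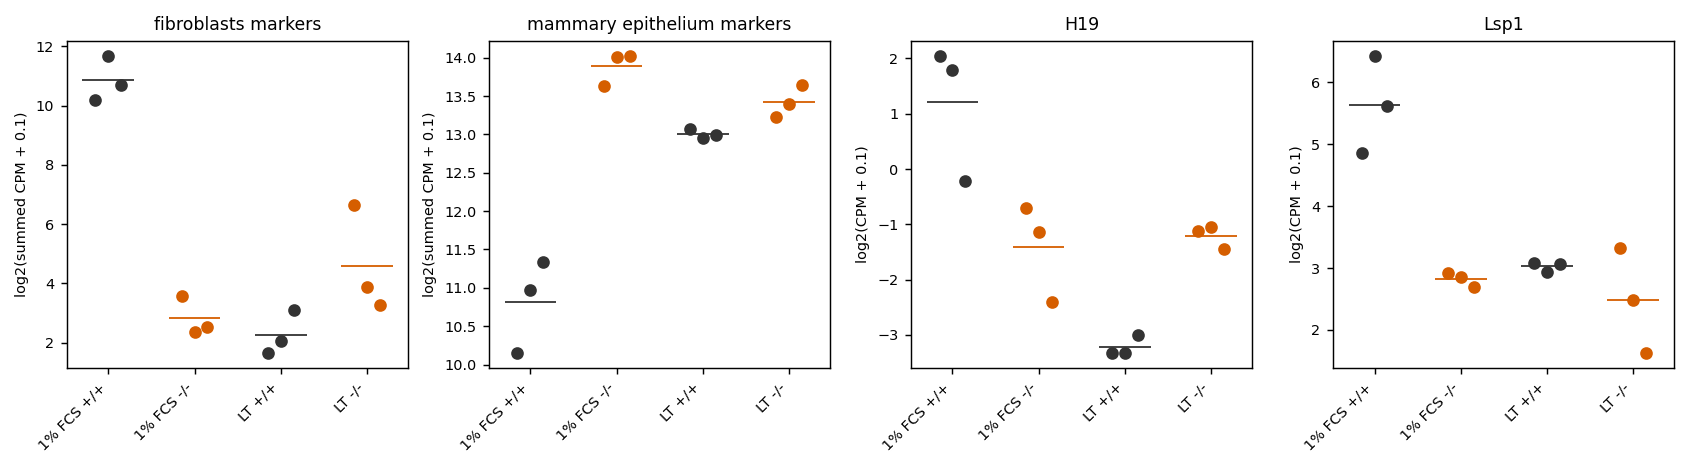
Summed CPM of 9 fibroblast and 12 mammary epithelial markers, and CPM of H19 and Lsp1, in the 12 cell samples, as log2(value + 0.1). Points are samples, lines means of the log2 values, black Ctsd+/+ and orange Ctsd-/-; the 1% FCS Ctsd+/+ samples have the most fibroblast markers, the fewest epithelial markers and the highest H19 and Lsp1, and H19 was lowest in 1% FCS LT Ctsd+/+ cells.

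Igf2 depended on single samples. In cells it had 419, 17 and 2 counts in 1% FCS Ctsd+/+ and 37, 11 and 12 in 1% FCS Ctsd-/-. After 12 weeks it had 4, 10 and 19 in Ctsd+/+ and 16, 22 and 36 in Ctsd-/- cultures. Replicate 1 of 1% FCS Ctsd+/+ held more counts than the other 11 cell samples together. The fall with time in Ctsd+/+ cells, -3.91 ± 1.36 on the log2 scale (SE, adjusted p = 0.0328), was 0.04 without that sample (adjusted p = 0.976). The genotype difference in 1% FCS was -3.05 ± 1.28 (SE, adjusted p = 0.0674) with it and 0.91 (adjusted p = 0.413) without it. It passed in DESeq2 (adjusted p = 0.0159), without a filter on low counts (adjusted p = 0.0192) and without replicate 2 or 3 of the same group (adjusted p = 0.0369 and 0.0102), fits that all keep replicate 1. The fall with time was also not called in the 8 samples of a shared LR number, which leave it out (-0.55, adjusted p = 0.655), nor without any single sample of 1% FCS LT Ctsd+/+ cells (adjusted p = 0.0581 to 0.0995), nor in limma-voom (-1.47, adjusted p = 0.482).

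In tumors Igf2 was at 0.50, 0.09, 0.71 and 0.15 CPM in controls and at 0.06, 0.29, 4.24 and 2.41 CPM in Ctsd-/- tumors. Tumors 3 and 4 were higher than every control, and tumors 1 and 2 lay within or below the control range. The log2 fold change of 2.25 ± 1.10 (SE, adjusted p = 0.576) passed the study's tumor threshold. It did not pass without Ctsd-/- tumor 3 (1.32), Ctsd-/- tumor 4 (2.06), control tumor 2 (1.92) or control tumor 4 (2.01), nor in limma-voom (1.23). Adipocyte markers summed to 11500 and 24590 CPM in Ctsd-/- tumors 3 and 4 and to 8330 and 3519 CPM in tumors 1 and 2. Their part in the Igf2 difference was not tested. In the edgeR fit H19 and Igf2 were both called, and both lower, in the time comparison of Ctsd+/+ cells, and in no genotype comparison. In 1% FCS both were called lower in Ctsd-/- cells by DESeq2 and without a filter on low counts.

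Mrpl23 and Dusp8 varied least between the cell groups. Mrpl23 was at 6.27 to 9.68, 8.93 to 10.1, 5.73 to 7.81 and 7.45 to 9.43 CPM in 1% FCS Ctsd+/+, 1% FCS Ctsd-/-, 1% FCS LT Ctsd+/+ and 1% FCS LT Ctsd-/- cells, with adjusted p-values of 0.223 to 0.924 in the 5 cell tests. In tumors it was at 35.5, 41.6, 49.9 and 76.6 CPM in controls and at 39.9, 37.9, 29.9 and 32 CPM in Ctsd-/- tumors. The log2 fold change was -0.54 ± 0.25 (SE, adjusted p = 0.563), past the tumor threshold. It did not pass without control tumor 4, the highest (-0.28), nor without Ctsd-/- tumor 3 (-0.47) or 4 (-0.50).

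Dusp8 was at 18.3 to 40.8 CPM in control and 22.8 to 41.1 CPM in Ctsd-/- tumors (log2 fold change 0.20 ± 0.29 (SE), not past the threshold). In cells its means lay between 38.3 and 65.7 CPM. The largest of its values in the cell tests was -0.78 ± 0.29 with time in Ctsd-/- cells (SE, adjusted p = 0.189), where it went from 71.5, 48.8 and 76.7 CPM to 30.0, 31.2 and 53.7 CPM, and no cell test of it passed.

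Of the 83 genes annotated within 1 Mb of the Ctsd start, 73 are not among the 10. In tumors 30 of these could be tested, and 3 were higher and 4 lower at p under 0.1, against 8.44% and 8.27% of all genes. Pnpla2, the triglyceride lipase of fat cells, was 3.8 times higher in Ctsd-/- tumors (log2 fold change 1.93 ± 0.50 (SE), adjusted p = 0.401), beside the higher adipocyte markers. Slc25a22, a mitochondrial glutamate carrier, was 1.70 times higher, and the pseudogene Gm4535 1.64 times lower. In cells 20 of the 73 could be tested. In 1% FCS 4 were higher and 6 lower in Ctsd-/- cells, against 23.5% and 25.1% of all genes, and in 1% FCS LT 4 were higher and 3 lower, against 20.5% and 19.1%. Taken over both directions these shares are near those of all genes.

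In 1% FCS the largest genotype differences of the window were those of Kcnq1ot1 and Kcnq1. Kcnq1ot1, the imprinted antisense RNA that silences neighbors on the paternal chromosome, had 161, 157 and 176 counts in 1% FCS and 87, 113 and 161 counts in 1% FCS LT Ctsd+/+ cells. It had 0 counts in all 6 Ctsd-/- cell samples. Set at 3 counts in the smallest library, Ctsd-/- cells were at least 53.5-fold lower in 1% FCS (adjusted p = 4.95e-06) and at least 40.8-fold lower in 1% FCS LT (adjusted p = 1.03e-05). Kcnq1, a potassium channel whose gene holds Kcnq1ot1, went the other way, with 0, 3 and 6 counts in 1% FCS Ctsd+/+ and 326, 473 and 444 counts in 1% FCS Ctsd-/- cultures. After 12 weeks the counts were 67, 60 and 47 counts in Ctsd+/+ and 258, 439 and 552 in Ctsd-/- cells, 6.70 times more in mean CPM (log2 fold change 2.74 ± 0.42 (SE), adjusted p = 0.000314). In tumors all 8 had counts assigned to Kcnq1ot1, at 24.0 to 68.4 CPM in controls and 52.5 to 101 CPM in Ctsd-/- tumors. Tumor counts are regardless of strand, so unspliced reads of Kcnq1 there cannot be told apart from Kcnq1ot1. Since each cell genotype is the line of 1 mouse, these differences cannot be told apart from differences between lines. On the other side of Ctsd, at -927 kb and -913 kb from its start, the rule named Cracr2b, a calcium channel regulator, and the tetraspanin Tspan4. Cracr2b was 2.36 times higher in 1% FCS Ctsd-/- cells (adjusted p = 0.00602) and 3.40 times lower in 1% FCS LT Ctsd-/- cells (adjusted p = 0.000833). Its interaction was -3.01 on the log2 scale (adjusted p = 0.000382). Tspan4 was 2.75 times lower in 1% FCS Ctsd-/- cells (adjusted p = 0.00574).

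**Figure D5:**
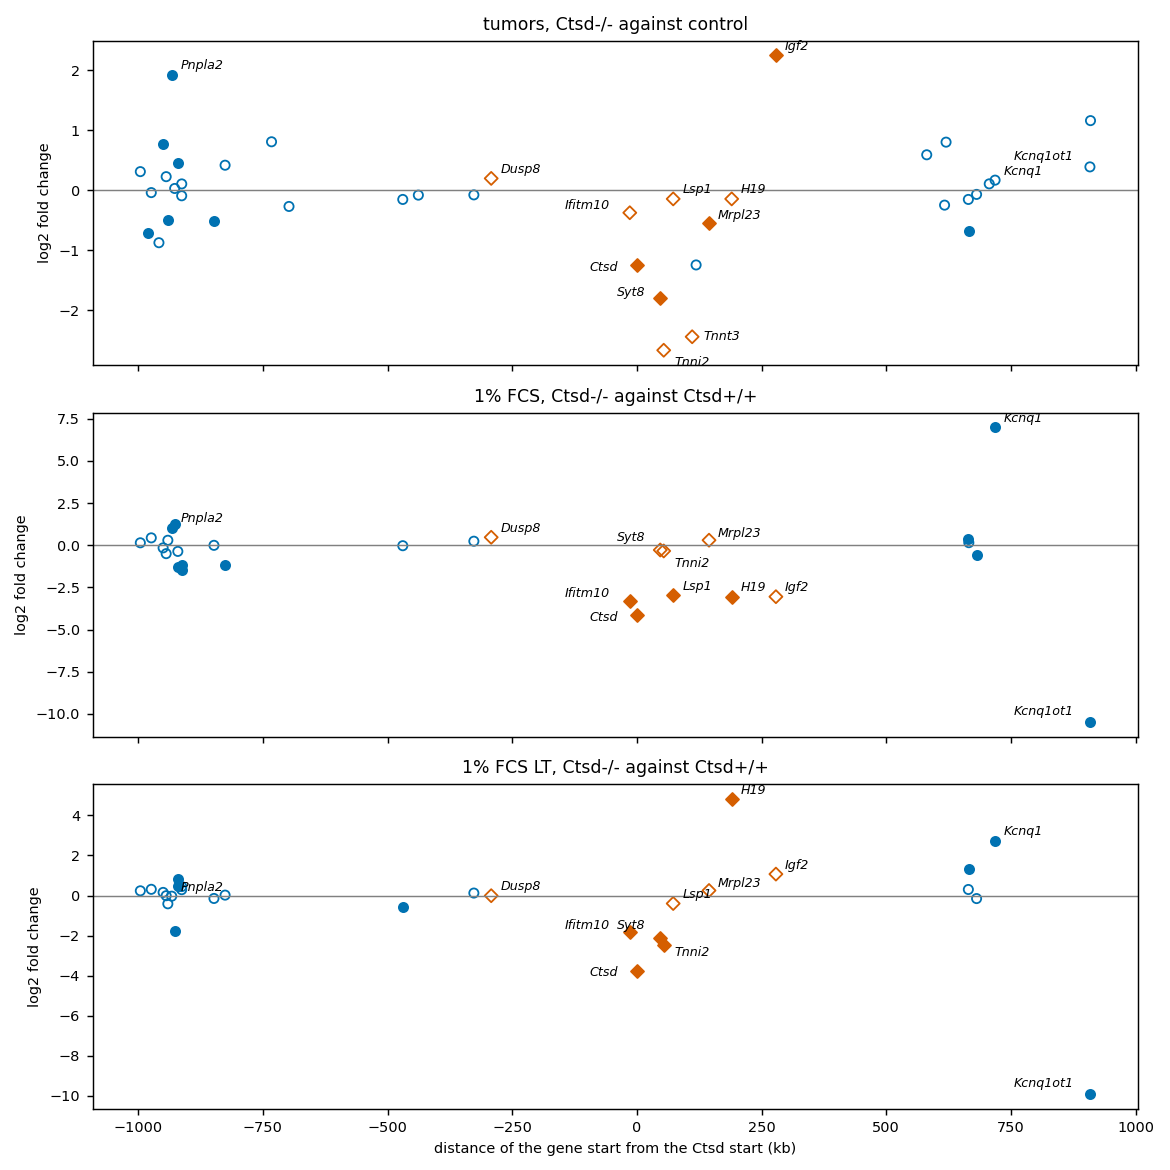
Fitted log2 fold change between Ctsd-/- and CTSD-competent samples for the genes tested within 1 Mb of Ctsd, against the distance of each gene's start from the Ctsd start in kb. Diamonds are Ctsd and its listed neighbors, circles other genes, and filled symbols passed p under 0.1 in tumors or adjusted p under 0.05 in cells; the sizes for Kcnq1ot1 in cells and H19 in 1% FCS LT rest on groups with 0 to 1 counts.

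A list of 17 genes of the distal imprinted region had 0 of 15 tested members past the threshold in tumors, with a median log2 fold change of -0.02 against 0.00 over all genes. In 1% FCS 5 of 12 were higher and 3 lower in Ctsd-/- cells, against 23.5% and 25.1% of all genes, with a median of 0.66 against 0.0. In 1% FCS LT 3 were higher and 3 lower, against 20.5% and 19.1%, with a median of 0.19 against 0.01. Phlda2, which limits placental growth, was 9.11 times higher in 1% FCS Ctsd-/- cells (log2 fold change 3.18 ± 0.29 (SE), adjusted p = 5.76e-06). With time in Ctsd+/+ cells 4 rose and 1 fell, against 23% and 23.4% of all genes. Among them were Phlda2, 9.26 times higher, and the cell cycle inhibitor Cdkn1c, 3.86 times higher (adjusted p = 0.00256). In Ctsd-/- cells 0 of 12 passed in edgeR, against 1.57% of all genes higher and 0.81% lower. An unadjusted p under 0.05 was found for 3, a level whose share of all genes is not given here. Tnfrsf26, a decoy death receptor, was 3.20 times higher in 1% FCS LT Ctsd-/- cells (adjusted p = 0.0114), although the groups overlapped. The interaction was called for 3 of the 12, all negative, where 16.1% of all genes were called with a positive and 14.1% with a negative value.

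Of 20 genes around IGF2 signaling and the control of the H19 and Igf2 locus, 19 could be tested. In tumors 4 were higher and 1 lower at p under 0.1, against 8.44% and 8.27% of all genes. Igf1, the related growth factor, was 2.22 times higher in the mean and the RNA-binding protein Igf2bp2 2.61 times higher in Ctsd-/- tumors, but the groups overlapped for both. Both were highest in Ctsd-/- tumors 3 and 4, the tumors with the most adipocyte markers, whose part was not tested. The IGF carrier Igfbp2 was 2.16 times lower, without overlap. In 1% FCS 3 were higher and 9 lower in Ctsd-/- cells, against 23.5% and 25.1% of all genes. Igf1 went from 17.4 to 0.11 CPM (adjusted p = 4.78e-05). The carrier Igfbp3 was at least 118.5-fold lower. Igfbp2 was at least 84.3-fold lower, a bound that rests on replicate 1 of Ctsd+/+ (counts of 667, 62 and 20) and is 13.6-fold without it. Igf1, Igfbp2, Igfbp3 and Lrp1 were high in the 1% FCS Ctsd+/+ group, which also holds the fibroblast transcripts, and the part of these was not tested. After 12 weeks 6 were higher and 3 lower, against 20.5% and 19.1%. Igfbp3 had a mean of 247.2 CPM in Ctsd+/+ cells and was at least 3201-fold lower in Ctsd-/- cells, Igf2bp1 was 106.0 times higher, and Igfbp4 6.58 times higher. The order of the genotypes for Igfbp4 was opposite in 1% FCS. There its mean was 772.8 CPM in Ctsd+/+ and 96.6 CPM in Ctsd-/- cells (adjusted p = 4.02e-05). Igf2bp1, an RNA-binding protein that binds both H19 and Igf2 transcripts, was at 8.66 CPM and 8.27 CPM in Ctsd-/- cells at the 2 times. In 1% FCS LT Ctsd+/+ cells it had 2, 2 and 5 counts, so the size of its 106.0-fold ratio is uncertain. With time in Ctsd+/+ cells 3 rose and 8 fell, against 23% and 23.4% of all genes. In Ctsd-/- cells 1 rose, Igfbp4 (3.13 times, adjusted p = 0.0326), and 0 fell, against 1.57% and 0.81% of all genes. The interaction was past the threshold with a positive value for 5 and a negative one for 1, against 16.1% and 14.1% of all genes. Medians of the list were 0.24 in tumors, -0.68 in 1% FCS and -0.01 in 1% FCS LT, on the log2 scale.

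The 10 genes that sort or activate CTSD were all tested. In tumors 2 were higher at p under 0.1, the sorting receptor Sort1 (1.67 times) and the CTSD-binding saposin precursor Psap (1.42 times), and 0 were lower, against 8.44% and 8.27% of all genes. In 1% FCS 1 was higher and 2 lower in Ctsd-/- cells, against 23.5% and 25.1%. The cysteine protease Ctsl was 3.47 times higher (adjusted p = 7.7e-05), Lrp1, an endocytic receptor that can bind secreted pro-CTSD, 4.22 times lower (adjusted p = 0.000109) and Ctsb 1.74 times lower (adjusted p = 0.0135). After 12 weeks 2 were higher and 1 lower, against 20.5% and 19.1%. Lrp1 was then 10.7 times higher in Ctsd-/- cells (adjusted p = 6.48e-06), the mannose 6-phosphate receptor Igf2r, which also clears IGF2, 1.39 times higher (adjusted p = 0.0411) and Sort1 1.88 times lower (adjusted p = 0.0239). With time in Ctsd+/+ cells Ctsl rose and Lrp1 fell, against 23% and 23.4% of all genes. In Ctsd-/- cells 0 of 10 passed in edgeR, against 1.57% of all genes higher and 0.81% lower. An unadjusted p under 0.05 was found for 2, a level whose share of all genes is not given here. The interaction was past the threshold for Lrp1, with a positive value, and for Ctsl, with a negative one, against 16.1% and 14.1% of all genes. Medians were 0.32 in tumors, 0.12 in 1% FCS and 0.23 in 1% FCS LT.

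The genes closest to Ctsd, H19 and Igf2 in profile were sought over the 4 cell group means. Likeness was the root mean square distance between centered means of log2(CPM + 0.1), among 2657 genes with at least 10 CPM on average and a range of at least 1 on the log2 scale. The profile of Ctsd was closest to Pax3 (distance 0.21), a developmental transcription factor, Egr1 (0.24), an immediate early transcription factor, and Fscn1 (0.45), an actin-bundling protein, with a median distance of 2.12 over all candidates. That of H19 was closest to the neurotrophin Bdnf (0.10), thrombomodulin Thbd (0.17) and Selenom (0.30), with a median of 1.70. Igf2 was closest to Hsd17b11 (0.06), Peak1 (0.07) and Nt5c3b (0.08), with a median of 0.88. Distances over 4 means that share their samples are a description only. With 0, 0 and 1 count, the value of H19 in 1% FCS LT Ctsd+/+ cells is set largely by the added 0.1. The Igf2 mean in 1% FCS Ctsd+/+ cells rests on 419, 17 and 2 counts. The 2 profiles are therefore uncertain.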

How the data were processed

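RNA sequencing of 8 tumors and 12 cell samples was used. Per the study's methods, trimming was done by Trimmomatic and alignment to GRCm38 (mm10) by STAR. The authors deposited its unnormalized counts by Ensembl identifier, sample by sample. Versions and annotation release are not given in the sources used here. The deposited counts come regardless of strand and for each strand. Reads regardless of strand were used in tumors, where 52.8% to 53.7% of stranded counts lay on the opposite strand, and opposite-strand reads in cells (97.1% to 97.3%). Reads on overlapping genes, 8.0% to 17.7% in tumors and 1.26% to 1.40% in cells, are not counted. GENCODE M21 gave symbols for 45143 of 45706 identifiers.

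Tests used edgeR 4.0.16 under R 4.3.3, where filterByExpr left 18617 genes in tumors and 15178 in cells, libraries were scaled by TMM, and two-sided quasi-likelihood tests were adjusted by Benjamini-Hochberg over all genes tested. Thresholds followed the study: p under 0.1 unadjusted in tumors, adjusted p under 0.05 in cells. The 12 cell samples shared a fit, and the interaction is the genotype difference in 1% FCS LT minus that in 1% FCS. Simulated data held 200 changed genes with a log2 fold change of 2 and were called at an adjusted p under 0.05. There edgeR recovered 85.5% among 18617 genes in the tumor comparison (5% false calls) and 98% among 15178 in the 1% FCS comparison (7.55% false). The tumor threshold of an unadjusted p under 0.1 was not simulated, so these rates do not apply to the tumor calls. The changed genes were drawn only from genes above a minimum mean count, which H19 in cells does not reach. The simulated spread followed the trend over genes of like level, so the rates do not cover noisier genes such as Igf2. Fold changes against groups with at most 3 counts in every sample are lower bounds, against 3 counts in the smallest library of the group. No replicate pair was alike enough to be a single library (chi-square per gene 16.5 to 616). Counts limit precision through sampling error only, and duplicates of PCR cannot be told apart.

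The members, marker and pathway lists were chosen with earlier results of these data known. Besides the members, the text names from each list and from the genes within 1 Mb up to 3 genes per comparison with the largest absolute log2 fold change past the threshold, not all of which are printed, and for Ctsd, H19 and Igf2 the 3 closest profiles. Marker genes of cell types other than these are named as examples. Same-numbered samples of both 1% FCS groups correlated at 0.373, 0.106 and 0.317 in their deviations from the group means. As all were over 0.1, the numbers were taken to pair the samples there, and replicate 1 of both shares an LR number. In no other comparison were all correlations over 0.1. Alternatives were DESeq2 1.42.0, limma-voom (limma 3.58.1), DESeq2 size factors, no filter, other count forms, a replicate block, single samples left out and the 8 cell samples of a shared LR number. Leaving out both tumors with muscle transcripts, and single samples from lower bounds, was chosen after seeing the data.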

Additional observations from a re-analysis of the deposited data

Results flagged for a closer look

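In groups of 4 tumors, a single tumor lay apart from the other 3 by Dixon's test at its 95% critical value for 6 of the 20 combinations of gene and group, where chance gives about 1 in 20. Tnni2 in control tumor 4 (120.2 CPM) and in Ctsd-/- tumor 1 (16.11 CPM), and Tnnt3 in the same tumors (187.7 and 32.69 CPM), stood above the rest. Lsp1 was highest in control tumor 2 (89.39 CPM) and H19 in Ctsd-/- tumor 3 (5.811 CPM).

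The genotype difference changed between 1% FCS and 1% FCS LT cells for 5 members by the interaction test at an adjusted p under 0.05: H19 (7.87 on the log2 scale), Lsp1 (2.56), Ifitm10 (1.44), Syt8 (-1.83) and Tnni2 (-2.14). Of all genes, 16.1% were called with a positive and 14.1% with a negative value.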

How the results depend on the processing

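Counts of called members stayed within 1.5 times under the alternatives in 105 cases and moved further in 5. The count of called members in tumors went from 4 to 2 with the replicate block and to 2 without both tumors with muscle transcripts, and ranged from 2 to 6 with single tumors left out; in Ctsd-/- cells with time it went from 0 to 1 with DESeq2. With single samples left out, Ctsd over time in Ctsd+/+ cells ranged from -1.03 to -0.26 (log2) and its interaction from -0.001 to 0.76. The sign of other values also turned in such fits, with ranges in tumors of -0.32 to 0.31 for Lsp1, -4.89 to 2.39 for Tnni2 and -5.99 to 3.08 for Tnnt3; in 1% FCS of -3.72 to 0.91 for Igf2; in 1% FCS LT of -0.33 to 0.15 for Dusp8; over time in Ctsd+/+ cells of -4.52 to 0.041 for Igf2 and -0.27 to 0.069 for Mrpl23; over time in Ctsd-/- cells of -0.15 to 0.88 for Igf2, -0.37 to 0.58 for H19 and -0.72 to 0.13 for Lsp1; and of -0.26 to 0.085 for the interaction of Mrpl23. Without both tumors with muscle transcripts Tnni2 was at 0.18 and Dusp8 at -0.088. In the 8 samples of a shared LR number Igf2 in 1% FCS was at 0.24, Lsp1 over time in Ctsd-/- cells at 0.18 and the interaction of Mrpl23 at 0.023. Dusp8 in 1% FCS LT was at 0.012 without a filter and at 0.004 with counts regardless of strand. The cause was not tested.

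By the rule that all same-numbered correlations be over 0.1, replicate numbers paired the samples in the 1% FCS genotype comparison alone. There the block changed no call of a member. The rule is not sharp: 1% FCS Ctsd-/- replicate 2 correlated at 0.106 with its own number and at 0.204 with Ctsd+/+ replicate 3. Between 1% FCS and 1% FCS LT Ctsd-/- cells the same-numbered values were 0.192, 0.089 and 0.174. Over all pairs of groups, same-numbered samples correlated at -0.347 to -0.015 in tumors and -0.299 to 0.373 in cells, over 0.1 in 8 of 18 pairs, and in 11 of 18 cases a cell sample correlated best with its own number. With the replicate block, Tnni2 in tumors was at -0.19, and Mrpl23 (-0.49) and Igf2 (1.66) in tumors and Igf2 over time in Ctsd+/+ cells (-2.83, adjusted p = 0.151) were not called. Over all genes, calls in tumors went from 3112 to 5437 without a filter and 1816 with the block, and to 1807 to 4465 with single tumors left out. In Ctsd-/- cells with time they went from 361 to 1077 with DESeq2, 680 without a filter, 756 in the 8 samples, and 61 to 527 with single samples left out. Depth limits H19, Igf2 and Tnnt3 in cells, where groups hold few counts.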
